A study of Homo sapiens with 11 samples.

Results

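The replication-type histone genes are the rows of the count tables whose symbols start with HIST1H, HIST2H, HIST3H or HIST4H. The tables list 73 such symbols among 26485, and members were chosen by their counts: a symbol entered when it had at least 10 counts summed over a table, treated and control libraries together. This gave 31 members in the 24 h table and 46 in the 2 h table, and all 31 were also members at 2 h. Of the 46 members, 4 encode linker histone H1, 11 encode H2A, 15 H2B, 10 H3 and 6 H4, with 38 genes on chromosome 6, 7 on chromosome 1 and 1 on chromosome 12. At 24 h the last symbol inside the rule was HIST2H2BF with 10 counts and the first outside was HIST1H2AK with 9. At 2 h HIST1H2AL, HIST1H2BB, HIST1H4B, HIST1H4D and HIST2H3D sat at exactly 10 counts and HIST1H4I fell outside with 6. Of the 27 symbols under 10 counts in both tables, 15 had 0 counts in all 11 libraries, and in 6 of those 15 no 100-base stretch of the gene was unique in the genome.

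All libraries came from Caki-1-SR clone 1, a single sunitinib-resistant clone of Caki-1, which is a human clear cell renal cell carcinoma line derived from a skin metastasis. The cells of every group were cultured with 1 µM sunitinib. ODC cells additionally received the EGFR inhibitor erlotinib (1 µM), the antidiabetic metformin (1 µM), the ruthenium drug Rapta-C (2 µM) and parthenolide, a plant sesquiterpene lactone (5 µM), for 2 or 24 h, and CTRL cells did not, being described both as untreated and as sham-treated. There were 3 CTRL and 3 ODC libraries at 24 h and 2 CTRL and 3 ODC libraries at 2 h, and the question addressed here is how the drug mix changed histone transcripts at each time. The labels do not say that replicates were separate cultures, so the p-values below measure only the spread between these libraries, and the library names carry a different date tag at each time point, whose meaning the labels do not give, so that time and tag cannot be told apart. PAX8 (437 to 891 CPM over the 11 libraries), KRT8 (395 to 979), KRT18 (308 to 671), CDH2 (104 to 222) and VIM (2450 to 3800) were abundant. CDH6 varied widely between libraries, from 6.15 to 424 CPM, and PAX2 and CA9 were at most 0.155 CPM. Of the 4 leukocyte markers, PTPRC, CD3E and LYZ, like the 3 endothelial markers PECAM1, VWF and CDH5, were at most 0.503 CPM, and CD14 reached 2.49 CPM. Of the 3 fibroblast markers, COL1A1 was at 60.0 to 238 CPM, PDGFRB at 3.07 to 49.1 CPM and DCN at up to 2.82 CPM.

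Replication-type histone genes supply the nucleosome proteins that package newly copied DNA, and their mRNAs accumulate in S phase. Their transcripts are the only metazoan mRNAs that normally end without a poly(A) tail: the 3′ end is cut just after a short stem-loop, which stem-loop binding protein (SLBP) holds. Some of these genes can also be read through to a downstream poly(A) signal, giving longer polyadenylated mRNAs, which have been described above all in differentiated and non-dividing cells. These libraries were made from poly(A)-selected RNA, so the tail-less form was expected to be largely left out and a count here is not the total histone mRNA of the cells. In bulk RNA, fewer cells with a transcript and less of it per cell cannot be told apart.

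The stem-loop was found in hg38 within 200 bases after the stop codon in 67 of the 70 histone symbols with a stop codon (95.7%) and in 3 of 19849 other protein-coding genes (0.0151%). It began 23 to 57 bases after the stop codon in the members. The letters are shown for the genes that carry the 24 h result, because they have a complete stem-loop next to the code as well as, for most of them, a second end elsewhere. The 16 bases of the stem-loop are in capitals with 7 bases on either side.
HIST1H2BD (chr6:26158587-26158602, plus strand): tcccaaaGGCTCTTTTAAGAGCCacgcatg
HIST1H2AC (chr6:26124669-26124684, plus strand): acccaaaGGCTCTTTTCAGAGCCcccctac
HIST1H2BC (chr6:26123472-26123487, minus strand): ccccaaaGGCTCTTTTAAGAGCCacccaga
HIST2H2BE (chr1:149886188-149886203, minus strand): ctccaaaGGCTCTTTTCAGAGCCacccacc
HIST1H1C (chr6:26055744-26055759, minus strand): cccaaaaGGCTCTTTTCAGAGCCaccactg
HIST1H2BK (chr6:27146366-27146381, minus strand): ccccaaaGGCTCTTTTAAGAGCCacttaaa
The form in HIST2H2BE was the most frequent, in 40 of the 67 symbols, and the form in HIST1H2BD, with A in place of C after the run of T, was in 10. Among the 46 members, 43 had a match, while HIST1H2BI, HIST1H3E and the pseudogene HIST2H2BC had none.

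Longer transcripts, reaching more than 100 bases past the stem-loop or ending at a poly(A) signal without one, were annotated for 13 of the 46 members: 7 of the 15 H2B genes, 2 of the 11 H2A genes, 2 of the 10 H3 genes, 2 of the 6 H4 genes and none of the 4 H1 genes. In 7 of the 13, a spliced transcript leaves out the stem-loop altogether. The annotated 3′ ends of the longer transcripts are shown for 4 of these genes, with the poly(A) signal in capitals.
HIST1H2BD (chr6:26171318-26171347, plus strand): tataattAATAAAatctgcggagaattgta
HIST1H2AC (chr6:26139081-26139110, plus strand): atgaggtAATAAAaggtaatgcaaagggag
HIST1H2BC (chr6:26114873-26114902, minus strand): agacaaaATTAAAataactcctagtatctc
HIST2H2BE (chr1:149884460-149884489, minus strand): tgttattAATAAAgttaccaattaatttaa
The end of the HIST1H2BD transcript lies 12747 bases past its stem-loop and is reached by splicing, that of HIST1H2AC lies 14432 bases and that of HIST1H2BC 8599 bases past it. In HIST2H2BE the longer transcript runs on without splicing for 1729 bases. For HIST1H2BK a longer form was annotated only in RefSeq, extending 8073 bases, and HIST1H1C had no longer form in either annotation, its model ending 4 bases after the stem-loop.

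Levels across genes were compared in CTRL at 24 h as CPM per kilobase of coding sequence, since coding lengths differ little within a family. HIST1H2BK, one of the H2B genes, had the highest value at 93.8, followed by HIST1H1C, the gene of linker histone H1.2, at 14.4 and HIST1H2AC at 6.90. The 13 members with a longer transcript had a median of 1.15 (0.165 to 93.8) and the 32 without one that have a coding sequence a median of 0.222 (0.0393 to 14.4), the pseudogene HIST2H2BC being left out. HIST1H1C was the exception among those without, 14.4 against 1.39 for HIST1H2BG, the next named gene. The gap between the medians depends on the length used. Per kilobase of exon they were 0.21 for the 13 and 0.172 for the 33 without a longer transcript, the pseudogene included. In CTRL at 2 h they were 0.388 and 0.444, in the other order. All 13 were members at 24 h but only 18 of the 33, so low values were to be found more among the 33. This ranking is a description, in which all genes share the same libraries. Reads were uneven: HIST1H2BK took 56.8 to 64.5% of all histone reads in the CTRL libraries at 24 h, and HIST1H1C 13.9 to 17.0%. Of the 46 members, 39 were at least 99% unique over 100-base stretches, whereas HIST1H2BK was 77.5% unique, so part of its reads may match near-identical copies.

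**Figure D1:**
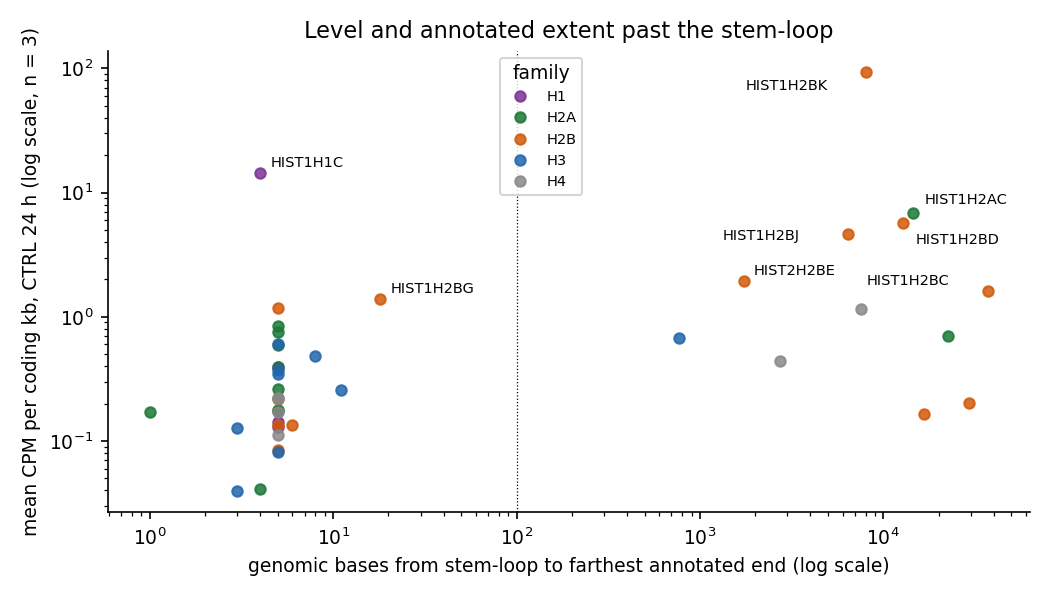
Mean CPM per coding kilobase in the 3 CTRL libraries at 24 h (log scale) against the genomic distance from the stem-loop to the farthest annotated transcript end in bases (log scale), for the 43 members with a stem-loop, coloured by family. The dotted line marks 100 bases; HIST1H2BK is highest at 93.8, and to the left of the line HIST1H1C stands alone at 14.4.

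At 24 h the histone genes that could be tested had higher estimates in ODC than in CTRL, and HIST1H2BD, an H2B gene, rose most. Of the 31 members, 8 passed the filter on low counts; 1 of them was called, with an adjusted p under 0.05 at 2-fold or more, against 0.15% of all 12689 genes tested that were called higher (edgeR quasi-likelihood test, Benjamini-Hochberg). With an unadjusted p under 0.05 and at least 2-fold, 4 of the 8 were higher against 1.77% of all genes, and with an unadjusted p alone 6 of the 8 were higher against 7.2%, while 0 were lower, against 0.0158%, 0.575% and 5.04% of all genes by the 3 rules. The 8 genes have the counts to be tested and are not the whole list. Low genes such as HIST1H2BC and HIST1H2BG can pass the filter through their ODC libraries, so these counts alone say little of the list. All 31 members are therefore described further below. The drug effect was known when the histone genes were chosen for description, and the p-values are those of the fit over all genes.

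HIST1H2BD had 52, 33 and 40 raw counts in CTRL replicates 1, 2 and 3 and 152, 145 and 146 in the ODC replicates. On the scale of TMM-scaled CPM these were 2.50, 1.72 and 2.21 in CTRL (2.15 ± 0.393, SD, n = 3) and 7.48, 7.84 and 7.02 in ODC (7.44 ± 0.411, SD, n = 3). The groups were far apart, and the lowest ODC library stood above the highest CTRL library by more than either group's spread. The log2 fold change was 1.79 (SE 0.20), with an adjusted p of 0.0251 in edgeR's quasi-likelihood test. Leaving out any 1 of the 3 CTRL libraries or ODC replicates 1 or 2 brought the adjusted p to between 0.0502 and 0.172, and without ODC replicate 3 it was 0.0252, while the log2 fold change stayed between 1.65 and 1.91.

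HIST1H2AC encodes an H2A and HIST1H2BC an H2B, and they are neighbours that start 218 bases apart and are read in opposite directions. HIST1H2AC was at 3.03, 1.67 and 3.38 CPM in CTRL and at 9.25, 7.13 and 6.68 CPM in ODC. HIST1H2BC was at 0.625, 0.470 and 0.719 CPM in CTRL and at 1.77, 1.19 and 2.12 CPM in ODC, from 9 to 13 raw counts in CTRL and 22 to 44 in ODC. The groups did not overlap for either gene. For HIST1H2AC the log2 fold change was 1.51 (SE 0.28, adjusted p = 0.0982) and that of HIST1H2BC was 1.48 (SE 0.33, adjusted p = 0.133), neither past the threshold in edgeR's quasi-likelihood test. With adjacent libraries as a block, the adjusted p was 0.0197 for HIST1H2AC and 0.0312 for HIST1H2BC.

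HIST1H1C, the linker histone gene, was at 11.1, 7.46 and 9.13 CPM in CTRL and at 20.9, 14.4 and 17.9 CPM in ODC, on 143 to 230 and 267 to 425 raw counts. The groups did not overlap, and the log2 fold change of 0.95 (SE 0.20) fell just short of 2-fold. Its adjusted p was 0.121 in edgeR's quasi-likelihood test and 0.0104 with the block of adjacent libraries. It is the one gene among the 6 with an unadjusted p under 0.05 that has no annotated longer transcript. HIST1H1C is nevertheless among the members best known for polyadenylated forms, so the missing annotation does not show that it lacks one.

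HIST2H2BE, an H2B gene of the chromosome 1 cluster, was at 0.913, 0.731 and 0.553 CPM in CTRL and at 2.16, 0.973 and 1.63 CPM in ODC. The groups did not overlap, although ODC replicate 2 was close to the highest CTRL library. Its log2 fold change was 1.11 (SE 0.37, unadjusted p = 0.0176, adjusted p = 0.279 in edgeR's quasi-likelihood test). Under the block of adjacent libraries the adjusted p was 0.0902.

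HIST1H2BK was at 38.1, 25.9 and 42.4 CPM in CTRL and at 62.5, 37.6 and 94.7 CPM in ODC. Here the groups overlapped, because ODC replicate 2 lay below CTRL replicates 1 and 3. The log2 fold change was 0.87 (SE 0.32, unadjusted p = 0.0263, adjusted p = 0.318 in edgeR's quasi-likelihood test), and 0.81 with an adjusted p of 0.0199 under the block of adjacent libraries. The labels do not pair the libraries. Between libraries of adjacent number, ODC was at 62.5 against 38.1, 37.6 against 25.9 and 94.7 against 42.4 CPM in CTRL.

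The remaining H2B genes with enough counts had overlapping groups. HIST1H2BJ was at 1.15 to 2.38 CPM in CTRL and 1.95 to 4.57 CPM in ODC (log2 fold change 0.77, SE 0.39, unadjusted p = 0.0804, adjusted p = 0.473, edgeR quasi-likelihood test). HIST1H2BG was at 0.387 to 0.769 CPM in CTRL and 0.639 to 1.20 CPM in ODC (log2 fold change 0.73, SE 0.41, unadjusted p = 0.109, adjusted p = 0.527). Neither passed the test, and under the block of adjacent libraries the adjusted p was 0.0799 for HIST1H2BJ and 0.356 for HIST1H2BG. In all, 5 of the 8 tested genes had ODC libraries wholly above CTRL, against 9.42% of all genes tested. HIST1H2BC is among these 5. With 9 raw counts in CTRL replicate 2 it passed the filter through its ODC libraries, so this share is partly set by the filter.

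**Figure D2:**
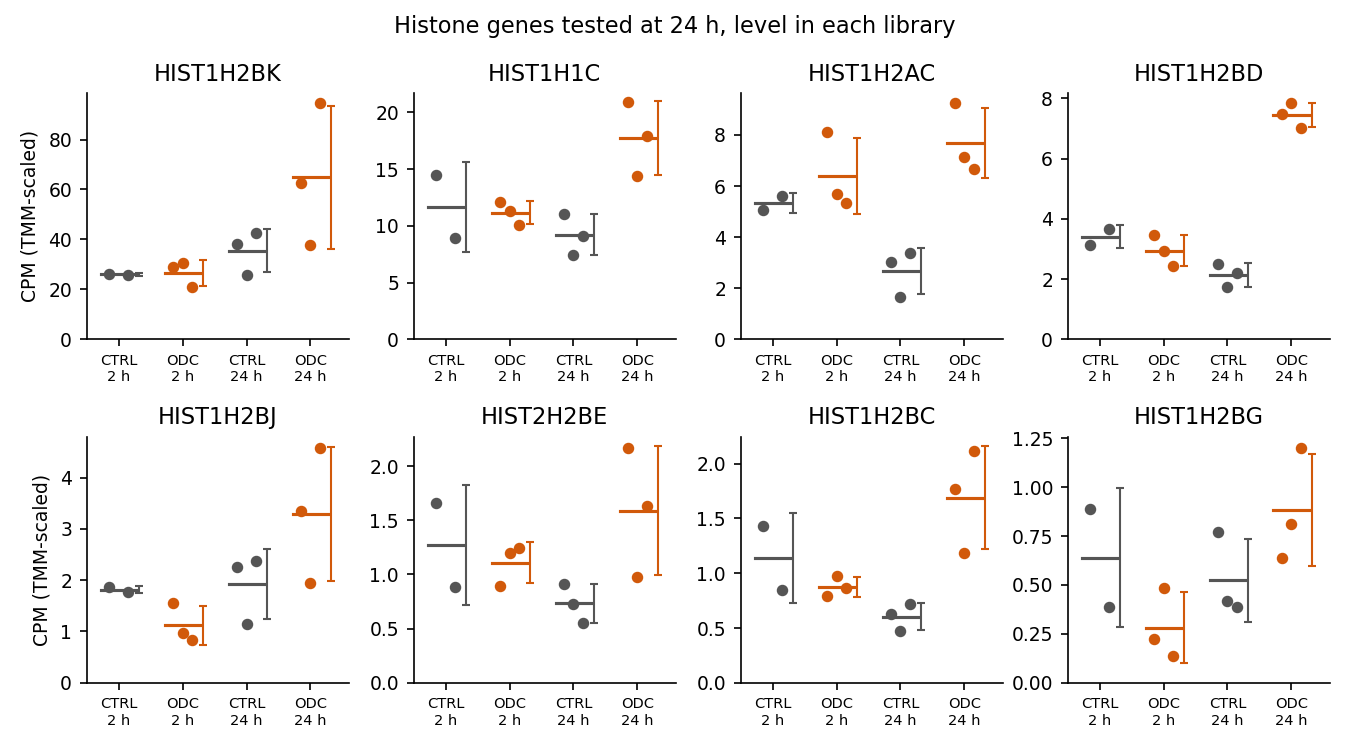
TMM-scaled CPM (linear axes from 0, one scale per gene) of the 8 histone genes tested at 24 h; each point is 1 library, the bar is the group mean and the whisker beside it is ± 1 SD. At 24 h HIST1H2BD was at 1.72 to 2.50 CPM in CTRL and 7.02 to 7.84 CPM in ODC, whereas at 2 h its CTRL and ODC libraries overlapped.

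Among all 31 members at 24 h, estimated without the filter on low counts, 23 were higher in ODC and 8 were lower. Their median log2 fold change was 0.65. With the histone symbols under 10 counts included, the median was -0.03, so its direction depends on the rule of 10 counts. Over the 14562 symbols with at least 10 counts the median was 0.00375 and 50.7% were higher. The ODC libraries lay wholly above CTRL for 7 of the 31, against 9.5% of those symbols, and wholly below for 0, against 8.04%. Besides the 5 genes above, these were HIST1H2BO and HIST1H2AE, the latter named after its values were seen. HIST1H2BO, an H2B gene with 16 counts in the table, had an unfiltered log2 fold change of 1.94 (SE 0.86, unadjusted p = 0.0462, adjusted p = 0.470, edgeR quasi-likelihood test), on 0 to 0.104 CPM in CTRL and 0.162 to 0.246 CPM in ODC. Those levels lie near or below the worth of 3 counts. HIST1H2BO had 1, 2 and 0 raw counts in CTRL and 5, 3 and 5 in ODC. It met the rule of 10 counts through its ODC libraries, so its place among the 7 is partly set by the rule. HIST1H2BH was at 0.418 to 0.481 CPM in CTRL and 0.192 to 0.649 CPM in ODC, and HIST1H4H at 0.221 to 0.481 CPM in CTRL and 0.378 to 1.01 CPM in ODC, both with overlapping groups. The 23 members under the filter had a median log2 fold change of 0.36, and HIST1H2BO was the only 1 of them with an unadjusted p under 0.05, which makes 7 of the 31 against 7.32% of symbols.

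Members with an annotated longer transcript held most of the histone reads at 24 h in both groups. Their share was 73.7 to 79.7% in CTRL and 76 to 83.1% in ODC. Of the 13, 12 had a higher estimate in ODC, with a median log2 fold change of 0.87, and the exception was HIST2H2BF at the limit of the rule (-0.03). Of the 18 without one, 11 were higher and 7 were not, and their median was 0.39. The difference between these groups of members was not tested, since members share the same libraries. Summed over the 13, the level was 49.4, 33.1 and 52.5 CPM in CTRL and 88.7, 58.6 and 119 CPM in ODC. The groups did not overlap. Most of this sum was HIST1H2BK, with means of 35.5 CPM in CTRL and 64.9 CPM in ODC and overlapping groups. Over the 33 members without a longer transcript, the sum was 17.3, 10.5 and 13.0 CPM in CTRL and 25.9, 18.3 and 24.0 CPM in ODC. The groups of this second sum did not overlap. Most of that sum was HIST1H1C, and with it left out the other 32 summed to 6.20, 3.08 and 3.82 CPM in CTRL and 4.97, 3.89 and 6.10 CPM in ODC, and these groups overlapped. By family, the summed level at 24 h was 42.5 ± 9.84 CPM in CTRL and 81.0 ± 30.4 CPM in ODC for H2B (SD, n = 3), 4.29 ± 1.29 and 9.52 ± 1.29 CPM for H2A, and 9.66 ± 2.24 and 18.3 ± 3.35 CPM for H1. It was 1.43 ± 0.342 and 1.63 ± 0.443 CPM for H3 and 0.716 ± 0.156 and 1.01 ± 0.434 CPM for H4. The core histones H3 and H4 are needed in the same number as H2A and H2B in a nucleosome. Their genes gave few reads in these poly(A)-selected libraries in either group. HIST2H3A, HIST2H3C, HIST2H4A and HIST2H4B, named for this alone, had 0 counts and no unique 100-base stretch. The same held for HIST2H2AA3 and HIST2H2AA4 of H2A. How reads with several matches were handled is not given, so the family sums may miss reads of these genes.

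**Figure D3:**
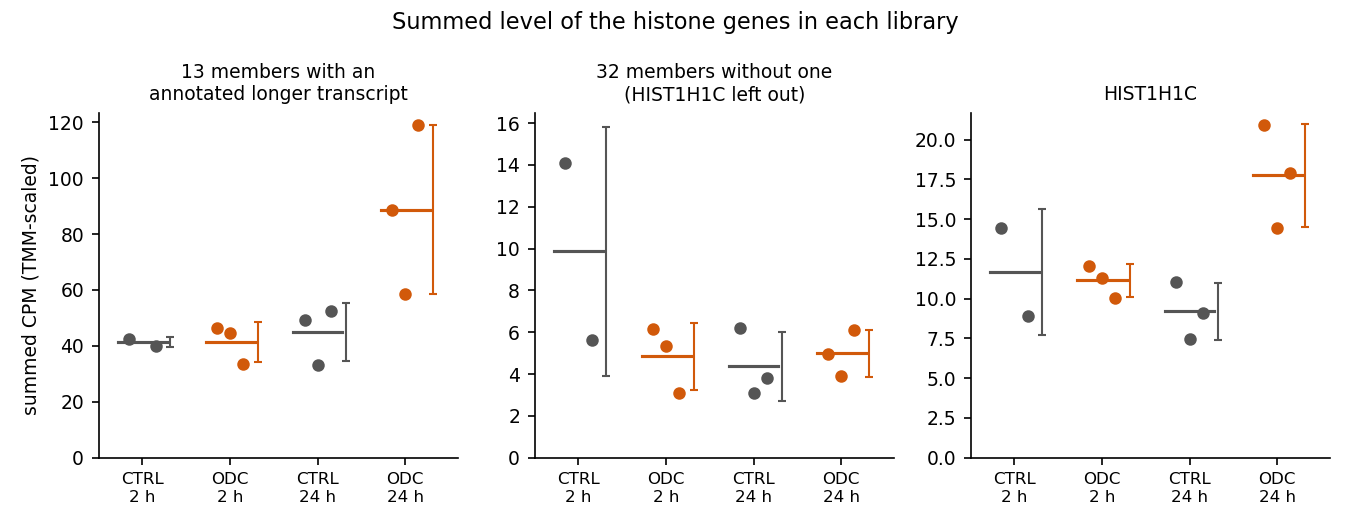
Summed TMM-scaled CPM per library (linear axes from 0) of the 13 members with an annotated longer transcript, of the 32 members without one other than HIST1H1C, and of HIST1H1C alone; points are libraries, bars group means and whiskers ± 1 SD. ODC and CTRL separate at 24 h in the first and last panels, and in the middle panel CTRL replicate 1 at 2 h stands apart at 14.1 CPM.

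At 2 h the genes that led at 24 h did not differ detectably between ODC and CTRL, and a single control library dominated the low-count members. In CTRL replicate 1 at 2 h the 32 members without a longer transcript other than HIST1H1C summed to 14.1 CPM, against 5.65 CPM in CTRL replicate 2 and 6.16, 5.34 and 3.07 CPM in the ODC libraries. That library had the highest level of 33 of the 46 members. Its total of 25782895 counts was the lowest of the 2 h libraries, its TMM factor was 1, and the cause was not tested. Of the 46 members, 19 passed the filter and 0 were called, as were 0% of all 13332 genes (edgeR quasi-likelihood test). DESeq2 also called 0, and 1 of the 19 had an unadjusted p under 0.05, against 2.34% of all genes.

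HIST1H2BD at 2 h was at 3.13 and 3.67 CPM in CTRL and at 3.46, 2.95 and 2.42 CPM in ODC (log2 fold change -0.21, SE 0.24). HIST1H2AC was at 5.07 and 5.61 CPM in CTRL and at 8.10, 5.70 and 5.35 CPM in ODC (0.26, SE 0.23). HIST1H2BK was at 26.2 and 25.7 CPM in CTRL and at 29.0, 30.4 and 20.8 CPM in ODC (0.04, SE 0.17). In all of these the groups overlapped. HIST1H1C (-0.07, SE 0.22), HIST1H2BC (-0.37, SE 0.35) and HIST2H2BE (-0.19, SE 0.37) also had overlapping groups, and the adjusted p of each of the 19 tested members was 1.0.

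HIST1H2BO was the 1 member with an unadjusted p under 0.05 and at least 2-fold lower at 2 h, against 0.21% of all genes: it was at 0.426 and 0.388 CPM in CTRL and at 0.159, 0.130 and 0.138 CPM in ODC (log2 fold change -1.49, SE 0.51, unadjusted p = 0.0199, adjusted p = 1.0, edgeR quasi-likelihood test). It is the same low-count H2B gene whose 24 h libraries lay in the other order. HIST3H2A, an H2A gene of the smaller chromosome 1 cluster that is named here for its order alone, was the 1 tested member with ODC wholly above CTRL, against 7.89% of all genes, at 0.697 and 0.741 CPM in CTRL and 0.898 to 1.10 CPM in ODC. HIST1H2BJ and HIST1H2BO were the 2 with ODC wholly below, against 7.42%.

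Without the filter, 38 of the 46 members were lower in ODC at 2 h and 8 higher, and the median log2 fold change was -0.94. Among the 14973 symbols with at least 10 counts 49.6% were lower. The 33 members without a longer transcript had a median of -1.23 and the 13 with one -0.20. Without CTRL replicate 1, 21 of the 46 were lower, so this direction rests on that library. ODC lay wholly below both CTRL libraries for 12 of the 46, against 7.9% of symbols. Low members can meet the rule of 10 counts through their CTRL libraries, so this share is partly set by the rule. Of these 12, HIST1H1B (log2 fold change -2.41, unadjusted p = 0.0148, adjusted p = 0.999) and HIST1H4B (-3.50, unadjusted p = 0.0421, adjusted p = 0.999) had an unadjusted p under 0.05 in edgeR's quasi-likelihood test, on totals of 30 and 10 counts, against 1.76% of symbols. HIST1H4B had 8 and 1 raw counts in CTRL and 0, 1 and 0 in ODC. It met the rule through CTRL replicate 1, and its lower CTRL library and highest ODC library held 1 read each.

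**Figure D4:**
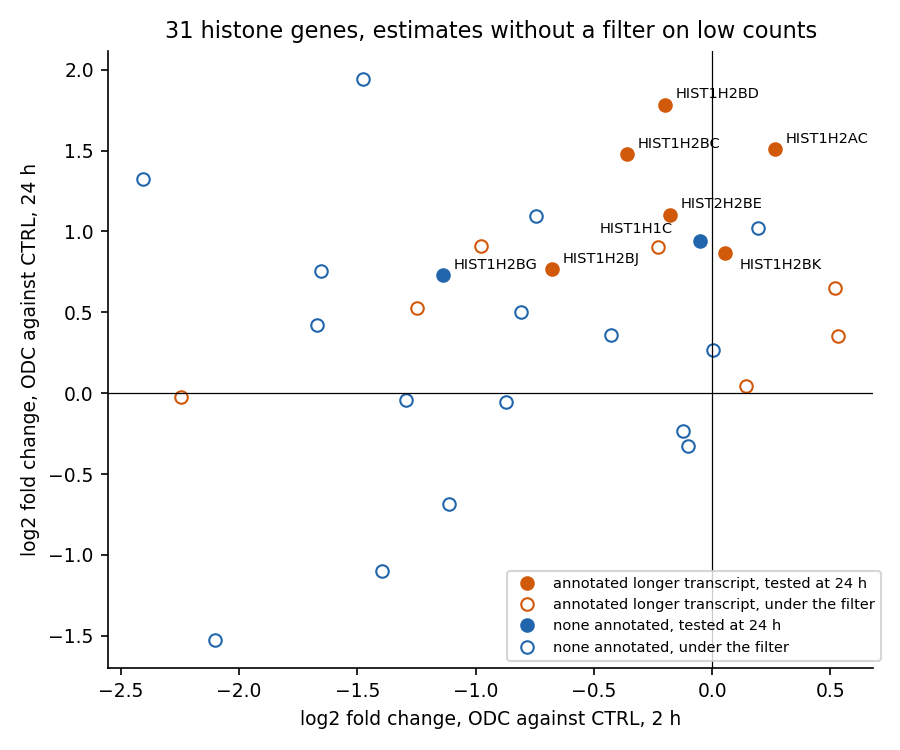
Log2 fold change of ODC against CTRL at 24 h (vertical) and at 2 h (horizontal) for the 31 histone genes that are members at both times, from the fits without a filter on low counts; filled points passed the filter at 24 h, and colour marks an annotated longer transcript. The 8 filled points lie between 0.73 and 1.79 at 24 h, and 23 of the 31 points lie above 0 on the vertical axis.

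A joint fit of 13333 genes, 16 of them members, tested whether the drug effect differed between the times. Of these, 0 passed the adjusted threshold, against 0.015% of all genes (edgeR quasi-likelihood test, Benjamini-Hochberg), 7 had an unadjusted p under 0.05 with a larger effect at 24 h, against 3.17%, and 6 of the 7 differed at least 2-fold, against 1.35%. HIST1H2BD had the smallest p: its log2 fold change was larger at 24 h by 1.98 (SE 0.30, adjusted p = 0.083). It was followed by HIST1H2BC with 1.84 (SE 0.48), HIST1H2AC with 1.24 (SE 0.38) and HIST1H1C with 0.99 (SE 0.31), with adjusted p from 0.503 to 0.597. HIST1H2BG (1.86, SE 0.76), HIST1H2BJ (1.45, SE 0.55) and HIST2H2BE (1.29, SE 0.54) had adjusted p from 0.727 to 0.794. For HIST1H2BK the difference was 0.82 (SE 0.43, unadjusted p = 0.0842). Part of the estimate comes from the CTRL libraries of each time. HIST1H2BD was at 3.40 ± 0.378 CPM in CTRL at 2 h (SD, n = 2) and at 2.15 ± 0.393 CPM in CTRL at 24 h (SD, n = 3).

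Promoter windows of RefSeq, 250 bases before to 50 bases after the transcription start, were found for 42 of the 46 members. The octamer ATTTGCAT, known as a binding motif of OCT1 in H2B promoters, was present on either strand in 11 of 14 H2B members (78.6%), 7 of 10 H2A members (70%), 1 of 9 H3 members and none of the 4 H1 or 5 H4 members, against 1.77% of all 35116 windows. These are not all separate sites. Neighbours read in opposite directions have overlapping windows, and most of the H2A matches are the same octamer counted for an H2B member. So is the 1 H3 match: the window of HIST1H3D, named for this alone, overlaps that of HIST1H2BF. The CCAAT box (letters CCAAT) was present in 88.1% of the members against 34.6% of all windows, and the TATA box (letters TATAAA) in 64.3% against 11.5%. The windows of HIST1H2AC and HIST1H2BD are shown because these genes led at 24 h and differ in the octamer. Matches to the 3 motifs on either strand are in capitals, and matches that touch run together.
HIST1H2AC (GRCh38.p14, chr6:26123922-26124221, plus strand): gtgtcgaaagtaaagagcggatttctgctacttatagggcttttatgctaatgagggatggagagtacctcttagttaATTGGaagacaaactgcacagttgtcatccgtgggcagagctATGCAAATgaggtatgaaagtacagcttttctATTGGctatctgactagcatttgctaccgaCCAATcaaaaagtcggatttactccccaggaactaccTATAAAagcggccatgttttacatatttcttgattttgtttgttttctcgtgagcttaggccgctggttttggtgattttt
HIST1H2BD (GRCh38.p14, chr6:26157871-26158170, plus strand): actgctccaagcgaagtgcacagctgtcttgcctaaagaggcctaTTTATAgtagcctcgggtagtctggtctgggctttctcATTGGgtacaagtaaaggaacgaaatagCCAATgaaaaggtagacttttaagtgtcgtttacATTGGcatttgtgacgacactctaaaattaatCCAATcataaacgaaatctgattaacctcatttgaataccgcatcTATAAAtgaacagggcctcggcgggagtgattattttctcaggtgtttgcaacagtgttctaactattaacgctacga
The HIST1H2AC window holds an octamer, which lies between this gene and HIST1H2BC and is shared by both windows. The HIST1H2BD window holds no octamer in these letters, though it has the CCAAT and TATA boxes. Of the 3 motifs the HIST1H1C window holds only the CCAAT box.

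Several of the 8 tested genes face an H2A gene across a short gap, and the partners differed. HIST1H2BC and HIST1H2AC, 218 bases apart, both had an unadjusted p under 0.05 at 24 h. HIST2H2BE and HIST2H2AC are 235 bases apart, and HIST2H2AC, named here only as the partner, had an unfiltered log2 fold change of -1.10 (SE 0.71, unadjusted p = 0.149) on 28 counts. HIST1H2BJ and HIST1H2AG are 247 bases apart, and HIST1H2AG was at 1.09 (SE 0.62, unadjusted p = 0.104) on 45 counts. HIST1H2BG and HIST1H2AE are 232 bases apart, and HIST1H2AE was at 0.51 (SE 0.47, unadjusted p = 0.303) on 42 counts. HIST1H2BK and HIST1H2AH are 250 bases apart, and HIST1H2AH was at -1.70 (SE 1.46, unadjusted p = 0.270) on 5 counts, which is under the rule for a member at 24 h. The differences between partners were not tested.

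Among genes that act around histone mRNA and histone protein, lower estimates were more frequent than higher ones at 24 h. Of 9 tested replacement histone genes, which are expressed outside S phase and make ordinary polyadenylated mRNA, 3 were lower with an unadjusted p under 0.05 and 0 were higher, against 5.04% and 7.2% of all genes tested. H1F0, a linker histone of resting and differentiated cells, was at 64.0 to 116 CPM in CTRL and 35.7 to 48.5 CPM in ODC (log2 fold change -1.02, SE 0.22, unadjusted p = 0.00157, adjusted p = 0.125, and 0.0469 under the block of adjacent libraries). H2AFZ, the gene of H2A.Z, had a log2 fold change of -0.34 (unadjusted p = 0.0141, adjusted p = 0.262, and 0.0303 under the block). H2AFY, the gene of macroH2A1, had one of -0.24 (unadjusted p = 0.0427, adjusted p = 0.385, and 0.0692 under the block). H2AFX, whose mRNA is known with and without a tail, did not pass the test at 24 h (-0.17, SE 0.12). At 2 h it had a log2 fold change of 0.34 (SE 0.11, unadjusted p = 0.0126, adjusted p = 1.0, edgeR quasi-likelihood test).

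Of 28 genes for histone gene transcription and 3′ end formation, 2 were lower with an unadjusted p under 0.05 and 0 were higher, which is near the 5.04% of all genes that were lower, and the median log2 fold change was -0.02. They were CASP8AP2, a cofactor of histone pre-mRNA cleavage (-0.30, unadjusted p = 0.0436), and CSTF1, a subunit of the cleavage stimulation factor (-0.23, unadjusted p = 0.0311), with adjusted p of 0.389 and 0.340. Under the block of adjacent libraries the adjusted p was 0.121 and 0.109. SLBP was at 113 to 138 CPM in CTRL and 102 to 119 CPM in ODC (-0.15, SE 0.11), and NPAT, the coactivator of histone gene transcription, was at 28.9 to 29.3 CPM and 25.4 to 26.8 CPM (-0.17, SE 0.10). Neither passed the test, although the NPAT libraries did not overlap. Of 15 histone chaperone genes, 14 had a lower estimate, against 49.9% of all genes, and the median was -0.10. NASP was the only 1 with an unadjusted p under 0.05 (-0.24, adjusted p = 0.369), again near the 5.04% of all genes. Its adjusted p under the block of adjacent libraries was 0.0743.

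Of 33 S-phase genes, 29 had a lower estimate in ODC at 24 h, against 49.9% of all genes, and 8 were lower with an unadjusted p under 0.05, against 5.04%, and the list's median log2 fold change was -0.18. Examples are PRIM1, a primase subunit (-0.52, adjusted p = 0.213), MCM7, part of the replicative helicase (-0.42, adjusted p = 0.214), and CDK2, an S-phase kinase (-0.37, adjusted p = 0.228). Under the block of adjacent libraries the adjusted p was 0.0206, 0.0237 and 0.0316. Of 13 tested genes tied to cell cycle arrest, 4 were higher with an unadjusted p under 0.05 and 0 lower, against 7.2% and 5.04% of all genes, while the median was -0.03. BTG2, an antiproliferative gene, was at 14.7 to 23.2 CPM in CTRL and 31.7 to 51.2 CPM in ODC (log2 fold change 1.23, SE 0.23, adjusted p = 0.0982, and 0.0185 under the block). CDKN1A, the gene of the CDK inhibitor p21, had a log2 fold change of 0.97 (SE 0.19, adjusted p = 0.107, and 0.0156 under the block). GADD45B was at 0.35 (adjusted p = 0.295, and 0.0965 under the block). None of these lists had a gene called by the adjusted rule at 24 h in edgeR's quasi-likelihood test.

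**Figure D5:**
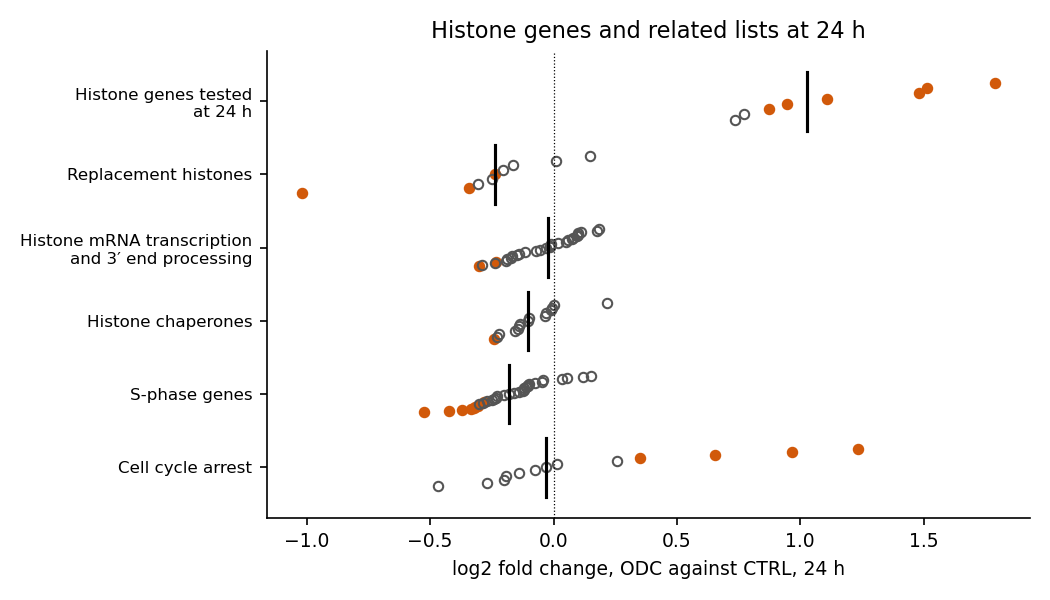
Log2 fold change of ODC against CTRL at 24 h for the 8 tested histone genes and the tested genes of the related lists, 1 point per gene; filled points have an unadjusted p under 0.05 and the vertical bar is the median of the list. All 8 histone genes lie to the right of 0, while 29 of the 33 S-phase genes lie to the left.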

How the data were processed

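RNA was extracted with a column kit, libraries were prepared with a stranded mRNA kit that selects polyadenylated RNA, and 100-base single-end reads were sequenced. Per the labels' processing notes, the authors aligned the reads to hg38 with STAR 2.7.0f and counted them per gene with HTSeq 0.9.1; the annotation release, the strand setting and the handling of reads with several matches are not given in the sources used here, so reads of a histone gene cannot be told apart from those of a gene that overlaps it on the other strand. The values that the authors deposited are raw counts per gene symbol, in 1 table per time point, with no normalization. Total counts ran from 17785229 to 20882856 at 24 h and from 25782895 to 31118349 at 2 h, so that 3 counts were worth 0.144 to 0.169 CPM (counts scaled to library size) at 24 h and, at 2 h, 0.0964 to 0.116.

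From these counts, ODC and CTRL were compared separately at each time point with edgeR 4.0.16 in R 4.3.3: TMM scaling (factors 0.965 to 1.02), filterByExpr (at least 10 counts in enough libraries, at least 15 in total) and the earlier quasi-likelihood method with the two-sided quasi-likelihood test. The difference between the time points was a contrast in 1 fit of all 11 libraries. P-values were adjusted by Benjamini-Hochberg over 12689 genes at 24 h, 13332 at 2 h and 13333 in the difference. A gene was called when it changed by 2-fold or more with an adjusted p under 0.05; the same fold with an unadjusted p under 0.05 was a second rule. Estimates for members under the filter come from the same model fitted to every gene with at least 1 count. The method was tested on simulated data: it recovered 96% of 4-fold and 75% of 2-fold changes at 24 h and called 8 of 12379 unchanged genes. Here a call needed only an adjusted p under 0.05, with no fold rule. The changes were placed in genes with more counts than most members have, so these rates do not apply to the low members.

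The members, the related gene lists and the groups of members were chosen with earlier results of these data known. Named in the text are all members with an unadjusted p under 0.05, the 6 members best known for polyadenylated forms, the 10 highest in CTRL at 24 h, members at the limit of the rule, SLBP, NPAT, CASP8AP2, H2AFX and at most 3 genes of each related list; other names are marked as chosen after their values were seen. Gene models, stem-loops and transcript ends came from GENCODE release 44 and hg38, and promoter windows and a second set of gene spans from RefSeq on GRCh38.p14; all 73 symbols matched in both. A stem-loop was a match to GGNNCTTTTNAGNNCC within 200 bases after a stop codon. A longer transcript was one reaching more than 100 bases past it, or, without a stem-loop, one with a poly(A) signal (AATAAA or ATTAAA) in its last 40 bases. Alternatives covered the filter, the scaling, the test (edgeR's likelihood ratio test and newer quasi-likelihood method, DESeq2 1.42.0), a joint fit, a block of adjacent libraries, and leaving out 1 library at a time. Libraries 1 and 2, 3 and 4, and 5 and 6 of the 24 h set, each pair 1 CTRL and 1 ODC, deviated together from their group means, with correlations of 0.27, 0.63 and 0.49 across genes. The labels give no shared replicate number, and what a pair shares is not stated.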

Additional observations from a re-analysis of the deposited data

How the results depend on the processing

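The histone gene called at 24 h was 1, and it became 2 with every gene of at least 1 count, with DESeq2 and in the joint fit, 3 with the likelihood ratio test and 3 with the replicate block of adjacent libraries, which also moved the adjusted p of HIST1H1C and HIST1H2BK under 0.05. Leaving out 1 library gave 0 to 1, and 0 without any CTRL library or without ODC replicates 1 or 2. By the unadjusted rule the 4 genes became 3 to 8 with 1 library left out, with 7 without CTRL replicate 1 and 8 without ODC replicate 2. The median log2 fold change over tested histone genes was 1.03 at 24 h and 0.87 to 1.24 with 1 library left out. It was -0.03 over every histone symbol with at least 1 count, which takes in symbols of 1 to 9 counts. The higher median at 24 h therefore depends on leaving those symbols out. At 2 h, the 1 gene of the unadjusted rule became 2 with every gene of at least 1 count, 0 with the CPM filter, DESeq2 and the joint fit, and 0 to 9 with 1 library left out (9 without CTRL replicate 2). Leaving out either CTRL library at 2 h leaves 1, which is assumed to vary like the ODC libraries. The 2 h median of -0.21 moved to -0.74 when every gene with 1 count or more was kept, and -1.06 to 0.20 with 1 library left out, the highest without CTRL replicate 1. In the difference between the times, 0 called became 1, HIST1H2BD, with every gene of at least 1 count, the likelihood ratio test and DESeq2, and stayed 0 with 1 library left out, while the 6 genes of the unadjusted rule became 3 to 11 (3 without CTRL replicate 1 at 2 h, CTRL replicate 2 at 24 h or ODC replicate 3 at 24 h, and 11 without CTRL replicate 2 at 2 h). Of the 10 members highest per kilobase of exon in CTRL, 7 stayed so per coding kilobase. The counts of higher and lower estimates without a filter were added after the data were seen and ran from 21 to 27 of 31 higher at 24 h and from 21 to 40 of 46 lower at 2 h with 1 library left out. Over 16 alternatives the log2 fold change of HIST1H2BD at 24 h was 1.65 to 1.91. At 24 h none of the 7 H3 and 2 H4 members had the counts to pass the filter, so differences in them could not be tested at this depth.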
